A study of Rattus norvegicus with 20 samples.

Results

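The monocarboxylate transporters Slc16a12 (ENSRNOG00000021916) and Slc16a4 (ENSRNOG00000018131) were followed in rat choroid plexus, as 2 of the 32883 Ensembl genes measured in 20 libraries. The pair was picked by its values across the 4 groups: with testosterone in obese rats, Slc16a12 was higher and Slc16a4 was lower. That can mean testosterone-treated obese rats against untreated obese rats or against lean control rats. Both are taken here as contrasts that chose the pair. Both contrasts are therefore described below without a test. Tests were kept to the 12 untreated rats, whose lean against obese difference was not the stated ground of the choice. The untreated obese rats were among those whose values were read for the choice, so these tests are not wholly free of it. RNA came from the lateral and 4th ventricle choroid plexus of female Zucker rats at 16 weeks of age, with 1 library per rat. The untreated cohort held 6 lean rats (Lean, +/fa) and 6 obese rats (Obese, fa/fa). In the injected cohort, 4 lean rats (Lean+VEH, +/fa) received 100 µl sesame oil as vehicle, and 4 obese rats (Obese+TT, fa/fa) received 1 mg testosterone propionate in the same volume of oil. Injections were given 2 times a week for 4 weeks. Every lean rat carried 1 copy of the fa allele of the leptin receptor gene, so no group was free of it. Neither obese rats given vehicle nor lean rats given testosterone were among these samples, so obesity and testosterone cannot be told apart in the injected cohort.

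The SLC16 genes encode the monocarboxylate transporter (MCT) family of membrane carriers. Its best known members move lactate, pyruvate and ketone bodies together with a proton, while others carry aromatic amino acids or creatine without one. The choroid plexus epithelium secretes the cerebrospinal fluid (CSF) and passes hormones and metabolites between blood and CSF. Slc16a12 encodes MCT12, which carries creatine and its precursor guanidinoacetate. Slc16a4 encodes MCT5, an orphan carrier whose substrate in this tissue is not established.

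Values are in TPM, transcripts per 1000000 transcripts, which are divided by gene length and sum to the same total in each rat. They can thus be compared between genes within a rat. Between rats each value is a share of a fixed total, so it also depends on the levels of the other genes. A difference between rats in TPM is therefore a difference in share. Each library held 14968 to 16860 genes with a TPM over 0. Ttr (transthyretin) took 25.8 to 39.3% of the TPM, with a lower share in the injected rats than in the untreated rats. All 10 epithelial markers were named and present, and their summed level of 275030 to 404380 TPM per rat was mostly Ttr, at 257742 to 393331 TPM. Rat 14 (Lean+VEH) stood apart in its cohort, with 78.7 on the first principal component against -21.7 to 4.75 for the other 7 rats, and values for the pair that rest on it are also given without it. In this whole tissue, fewer cells of a type and less RNA per cell cannot be told apart.

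Slc16a12 was a well-expressed transcript. In the Lean rats its level was 44.9, 41.9, 49.0, 36.0, 46.6 and 35.8 TPM in rats 1 to 6. In the Obese rats Slc16a12 was at 28.6, 50.6, 41.6, 36.7, 49.8 and 54.0 TPM in rats 7 to 12. The lowest and the highest of the untreated rats were both obese, and the groups overlapped across nearly the whole lean range. In the Lean+VEH rats Slc16a12 was at 78.4, 61.7, 62.1 and 70.4 TPM in rats 13 to 16, and in the Obese+TT rats at 74.9, 84.1, 83.2 and 92.1 TPM in rats 17 to 20. The injected groups overlapped through rat 13, whose 78.4 TPM was above the 74.9 TPM of rat 17, while the other 3 Obese+TT rats were above every Lean+VEH rat.

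Ordered by the mean level of Slc16a12, the groups ran from Lean (42.4 ± 5.52 TPM, SD, n = 6) and Obese (43.5 ± 9.72 TPM, n = 6) to Lean+VEH (68.1 ± 7.91 TPM, n = 4) and Obese+TT (83.6 ± 7.05 TPM, n = 4). Lean and Obese, next to each other in that order, did not differ beyond their spread. Among all genes Slc16a12 held rank 2040 of group means in Lean rats, 1995 in Obese rats, 1437 in Lean+VEH rats and 1147 in Obese+TT rats. Its coefficient of variation was between 8.44% in Obese+TT and 22.3% in Obese.

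Slc16a4 was a scarce transcript. In the Lean rats its level was 1.12, 0.42, 1.12, 0.61, 0.57 and 0.23 TPM in rats 1 to 6. In the Obese rats Slc16a4 was at 0.45, 0.91, 1.08, 0.81, 1.07 and 0.23 TPM in rats 7 to 12. Each untreated group held rats from 0.23 TPM to slightly above 1 TPM, and the groups covered nearly the same range. In the Lean+VEH rats Slc16a4 was at 0.61, 2.04, 1.35 and 0.66 TPM in rats 13 to 16, and in the Obese+TT rats at 0.49, 0.36, 0.42 and 0.24 TPM in rats 17 to 20. All 4 Obese+TT rats were below all 4 Lean+VEH rats, and the highest of the Lean+VEH rats was rat 14.

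The group means of Slc16a4 ran from Obese+TT (0.38 ± 0.11 TPM, SD, n = 4) through Lean (0.68 ± 0.37 TPM, n = 6) and Obese (0.76 ± 0.35 TPM, n = 6) to Lean+VEH (1.17 ± 0.67 TPM, n = 4). No untreated group stood clear of either injected group: the ranges of Lean and Obese overlapped those of Lean+VEH and of Obese+TT. The coefficient of variation was 28.1% in Obese+TT and between 45.7 and 57.9% in the other groups, larger than that of Slc16a12 in each group. The files used here give no read counts, so the counting error behind values under 1 TPM cannot be given.

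**Figure D1:**
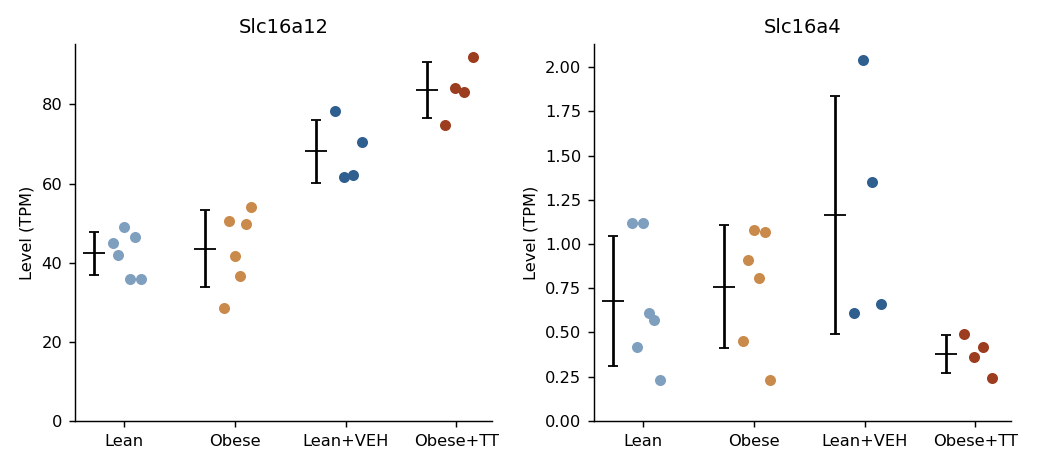
Level of Slc16a12 (left) and Slc16a4 (right) in TPM on linear axes that start at 0, with 1 point per rat and the mean and SD of each group beside it (n = 6, 6, 4 and 4). The 8 injected rats sit at 61.7 TPM or more for Slc16a12, above all 12 untreated rats, while the Obese+TT rats sit at 0.49 TPM or less for Slc16a4.

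In untreated rats, the question was whether obesity alone goes with a different level of either carrier. For Slc16a12, the mean log2(TPM + 0.1) was 0.017 higher in Obese than in Lean (SE 0.14, limma with Benjamini-Hochberg adjusted p = 0.986, exact two-sided permutation p = 0.916). The 95% interval of the difference ran from -0.29 to 0.32, which is 0.82 to 1.25 times the lean level. For Slc16a4 the difference was 0.15 (SE 0.38, limma adjusted p = 0.939, exact two-sided permutation p = 0.69). Its interval ran from -0.65 to 0.96, which is 0.64 to 1.94 times the lean value of TPM + 0.1. For so scarce a gene the added 0.1 pulls such ratios toward 1, so bounds for TPM itself would be wider. Neither a lower nor a higher level within these bounds can be told from the lean level with these rats. At least as far from 0 as the difference of Slc16a12 lay 90.6% of the genes tested, and at least as far as that of Slc16a4 lay 37.6%. Among the 15176 genes tested, limma called 0 at an adjusted p under 0.05, and 1466 (9.66%; 5.91% higher and 3.75% lower in Obese) had an unadjusted p under 0.05. Groups did not overlap in 0.540% of genes (0.297% higher and 0.244% lower in Obese), and those of both carriers overlapped. The labels do not state that the rats came from separate litters, and the p-values measure only the spread between these rats. The sign of the untreated difference of Slc16a12 depended on single rats: it was -0.051 without Obese rat 12, -0.033 without Obese rat 8, -0.028 without Obese rat 11 or Lean rat 4, -0.029 without Lean rat 6, and 0.13 without Obese rat 7. For Slc16a4 it was -0.065 without Lean rat 6 and 0.40 without Obese rat 12, the 2 rats with the lowest level.

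In the injected rats the pair was chosen for its opposite differences, which are given here as a description. Slc16a12 was 0.30 higher in Obese+TT than in Lean+VEH on the log2(TPM + 0.1) scale (SE 0.10 from the group SDs, 0.091 from limma). Its mean TPM was 22.6% higher. Without rat 14 that difference was 0.25. Slc16a4 was -1.28 on the same scale (SE 0.42), and its mean TPM in Obese+TT was 0.32 times that in Lean+VEH. The Lean+VEH mean of Slc16a4 was 0.87 ± 0.41 TPM without rat 14 (SD, n = 3), and the difference was then -0.98, with the groups still apart. The added 0.1 shrinks the change of so scarce a gene: with 1 TPM added, the Slc16a4 difference was -0.60.

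All genes tested in that comparison give the background for these values. Of the 15259 genes tested, 11.2% were at least as much higher in Obese+TT as Slc16a12, and 0.859% were at least as much lower as Slc16a4. Groups that did not overlap, as those of Slc16a4, were found in 253 genes on the lower side (1.66%), beside 2.37% of genes on the higher side and 4.02% in either direction. At an adjusted p under 0.05, limma called 0 of these genes, with 1134 (7.43%; 4.25% higher and 3.19% lower in Obese+TT) at an unadjusted p under 0.05. The study's own test, on read counts, called genes in this and in the untreated comparison. The paper lists Slc16a12 as upregulated in Obese+TT. The 0 calls here are those of limma on TPM and do not mean that the groups were alike. Nothing is read from these shares for the pair, since this contrast chose it. Whether the obese against lean difference of either gene differs between the cohorts was not tested, because such a test holds the contrast that chose them.

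The level of Slc16a12 relative to Slc16a4 was highest in Obese+TT. The pair was chosen for a higher Slc16a12 and a lower Slc16a4 in that group. A high ratio there follows from the choice, and the values are a description. The mean level of Slc16a12 was 62.4 times that of Slc16a4 in Lean, 57.4 times in Obese and 58.5 times in Lean+VEH, against 221.4 times in Obese+TT. Per rat the ratio ran from 153 to 384 in Obese+TT and from 30.2 to 128.4 in Lean+VEH. Without rat 14, which had the lowest ratio, the ratio of means in Lean+VEH was 80.5 and the lowest rat was at 46.0. The untreated rats reached into both ranges, with 40.1 to 155.6 in Lean and 38.5 to 234.6 in Obese. The high untreated ratios belonged to Lean rat 6 and Obese rat 12, the rats with 0.23 TPM of Slc16a4.

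**Figure D2:**
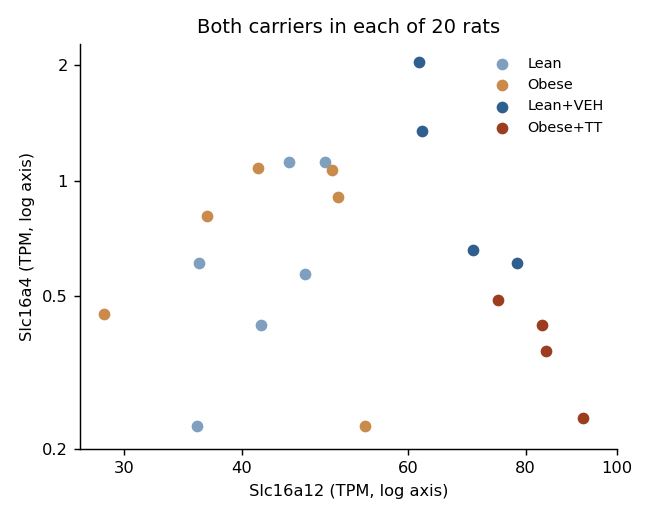
Slc16a4 against Slc16a12 in TPM, both on log axes, with 1 point per rat and the colour giving the group. The 4 Obese+TT rats lie at the lower right, at 74.9 to 92.1 TPM of Slc16a12 and 0.24 to 0.49 TPM of Slc16a4. The pair was chosen for its values in that group, so this place follows from the choice. The 12 untreated rats spread over the left of the plot with no clear slope.

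Over the 12 untreated rats, the levels of both genes were compared on the log2(TPM + 0.1) scale, with Pearson r = 0.25 (permutation p = 0.429) and Spearman rho = 0.24 (permutation p = 0.449). Without rats 12 and 7, which were farthest from the median of Slc16a12, r was 0.59 (permutation p = 0.0695) and rho 0.49 (permutation p = 0.151) over 10 rats. Within the 6 Lean rats r was 0.71 (exact permutation p = 0.125), and within the 6 Obese rats it was 0.019 (exact permutation p = 0.976). Spearman's rho was 0.67 (exact permutation p = 0.161) and -0.086 (exact permutation p = 0.919) in the same groups. This was the only relation tested across rats, and it did not pass in any of these sets. When group means were taken out, the deviations of the 2 genes over all 20 rats had r = 0.021.

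Whether the cohorts were dissected and sequenced together is not given in the sources used here. Their levels therefore stand side by side without a test, and cohort, injection and, in obese rats, testosterone cannot be told apart. Slc16a12 was higher in the injected cohort in each pairing. It was 0.69 higher on the log2 scale in Lean+VEH than in Lean (SE 0.11, 1.61 times the mean; 0.73 without rat 14) and 0.97 higher in Obese+TT than in Obese (SE 0.15, 1.92 times the mean). The lowest injected rat, at 61.7 TPM, was above the highest untreated rat, at 54.0 TPM. Such separation was frequent: groups did not overlap, with the injected group higher, in 34.0% of 15327 genes between Lean+VEH and Lean and in 34.1% of 15390 genes between Obese+TT and Obese. In either direction the shares were 44.8% and 45.8%.

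The whole profile was shifted between the cohorts. The median difference over genes of at least 10 TPM was 0.19 for the lean pairing and 0.21 for the obese pairing. After scaling the rats by their median ratios over such genes, Slc16a12 was 0.48 higher in Lean+VEH than in Lean and 0.75 higher in Obese+TT than in Obese, still without overlap. Slc16a4 did not show the same pattern: it was 0.69 higher in Lean+VEH than in Lean (SE 0.48; 0.39 without rat 14) and -0.74 in Obese+TT against Obese (SE 0.34). Its groups overlapped in both pairings. Scaled, these values were 0.51 and -0.92. The pair may have been chosen on its opposite differences between Obese+TT and Obese, so nothing is read from them.

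Cell type markers also differed between the cohorts. Of the 10 epithelial markers, 8 were higher in the injected rats without overlap in each pairing, as Slc16a12 was. The share of all genes was 34.0% in the lean pairing and 34.1% in the obese pairing, each taken alone. In both pairings at once the count was 8, and 7 after median-ratio scaling. No share of all genes was taken for both pairings at once or after scaling. Kl was at 2.17 and 2.22 times its untreated mean in the lean and obese pairing, Kcnj13 at 2.08 and 2.02 times, and Clic6 at 1.502 and 1.53 times. Ttr was lower in both pairings and Igfbp2 overlapped, in TPM as deposited. After median-ratio scaling, 2 of the 10 were lower without overlap in both pairings. Of all genes, 10.7% in the lean pairing and 11.7% in the obese pairing were lower in the injected group without overlap, in TPM as deposited. These shares stand beside the lower markers that follow. Plvap, an endothelial marker and the only named 1 of 6 listed, was at 39.95 to 60.3 TPM in untreated rats and 1.68 to 10.6 TPM in injected rats. The 5 named of 10 fibroblast and mural markers summed to 197 to 286 TPM in untreated rats and 68.5 to 105.5 TPM in injected rats. These did not move together: Dcn (92.5 against 10.9 TPM in the lean pairing), Rgs5 (99.7 against 5.51 TPM) and Col1a1 (4.92 against 0.49 TPM) were lower in both pairings without overlap, Myh11 overlapped in the lean pairing, and Pdgfra was higher in both (25.4 against 65.1 TPM in the lean pairing, 28.7 against 60.2 TPM in the obese pairing). Gja1, the only named 1 of 5 astrocyte markers, was at 4.79 to 9.12 TPM in untreated rats, 1.21 to 2.47 TPM in Lean+VEH and 2.94 to 3.39 TPM in Obese+TT. In the obese against lean comparisons, the 4 named of 5 red blood cell genes were all higher in the obese group, and their sum was 3105 to 5471 TPM in Lean, 4052 to 7019 TPM in Obese, 2168 to 5768 TPM in Lean+VEH and 4799 to 8388 TPM in Obese+TT. Rsph1, the only named 1 of 5 ependymal markers, was at 60.6 to 85.5 TPM throughout. No macrophage, neuron, oligodendrocyte or pineal and pituitary marker had a symbol here. The part of these cells in the levels of Slc16a12 and Slc16a4 was not tested.

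Of the 13 SLC16 genes listed, 5 could be named in these files, including the pair. Slc16a8 (MCT3, a lactate carrier of retinal and choroid plexus epithelium) had the highest level of the 5, with 90.9 ± 12.6 TPM in Lean rats and 87.0 ± 9.56 TPM in Obese rats (SD, n = 6). In these groups Slc16a13 (MCT13, a lactate carrier) was at 42.5 ± 4.58 and 44.6 ± 6.01 TPM, close to Slc16a12. Slc16a6 (MCT7, a ketone body exporter of liver) was at 21.7 ± 5.16 and 24.1 ± 5.11 TPM. Slc16a4 had the lowest level among the 5 in each group. Slc16a12 lay between Slc16a8 and Slc16a6 in the untreated groups, while in Lean+VEH Slc16a6 (74.3 TPM) had a higher mean than Slc16a12 (68.1 TPM).

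None of the 5 genes passed in untreated rats, beside 0% of all genes tested. On the log2 scale, 4 were higher and 1 lower in Obese, with a median of 0.065 beside 0.021 over all genes tested, and limma adjusted p-values of the other 3 were 0.797 to 0.897. In the injected comparison, 3 were higher and 2 lower in Obese+TT, with a median of 0.046 beside 0.0092 over all genes. Slc16a6 (-0.042, SE 0.091), Slc16a13 (0.046, SE 0.052) and Slc16a8 (0.18, SE 0.13) had groups that overlapped, as did Slc16a12.

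Side by side across cohorts, Slc16a6 showed the widest separation of the 5. Its level was 16.1 to 32.4 TPM in untreated rats and 63.9 to 83.8 TPM in injected rats, or 3.43 times the mean in the lean pairing and 3.01 times in the obese pairing. Slc16a13 was higher by 0.50 and 0.48 on the log2 scale without overlap, but after median-ratio scaling the obese pairing overlapped. Slc16a8 had groups that overlapped in both pairings, at -0.28 (SE 0.14) and -0.043 (SE 0.092). Slc16a6, Slc16a13 and Slc16a12 were thus higher in the injected rats without overlap in each pairing, in TPM as deposited. That is 3 of 5, with Slc16a12 chosen by its values. The share of all genes was 34.0% in the lean pairing and 34.1% in the obese pairing, each taken alone. The groups of Slc16a8 and Slc16a4 overlapped.

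**Figure D3:**
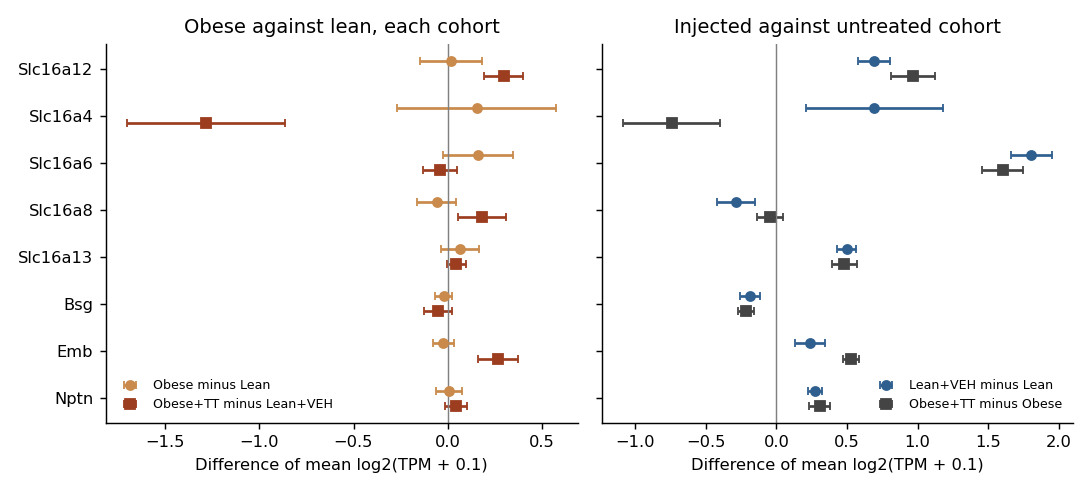
Differences of mean log2(TPM + 0.1) with their standard errors from the group SDs, for the 5 named SLC16 genes and 3 partner glycoproteins, with obese against lean groups on the left and injected against untreated groups on the right. On the left Slc16a4 lies at -1.28 in the injected cohort and Slc16a12 at 0.30, and on the right Slc16a6 lies farthest to the right, at 1.804 and 1.603.

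Several MCTs reach the plasma membrane only with a partner glycoprotein, and all 3 of those listed were named. Bsg (basigin, partner of the classic lactate carriers and of MCT12) was among the most abundant transcripts, at 3007 ± 178 TPM in Lean, 2962 ± 142 TPM in Obese, 2643 ± 204 TPM in Lean+VEH rats and 2550 ± 164 TPM in Obese+TT rats. Emb (embigin) was at 118.0 ± 10.5, 115.8 ± 4.74, 139.5 ± 17.5 and 167.3 ± 12.3 TPM in the same order, and Nptn (neuroplastin) at 154.8 ± 12.5, 155.7 ± 13.7, 186.4 ± 4.37 and 192.5 ± 14.6 TPM. In untreated rats none of the 3 passed (limma adjusted p = 0.946, 0.946 and 0.986). In the injected rats Emb was 0.27 higher in Obese+TT (SE 0.11) with overlap, a difference close in size to that of Slc16a12. The other 2 differed by -0.051 (Bsg, SE 0.075) and 0.043 (Nptn, SE 0.058).

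Of the list on creatine synthesis, transport and use, 3 of 7 genes were named and none passed in untreated rats. Gamt, the enzyme that methylates guanidinoacetate to creatine, was at 5.63 ± 0.92 TPM in Lean rats and 7.16 ± 1.82 TPM in Obese rats (0.32, SE 0.16, limma adjusted p = 0.559). Ckb, the brain-type cytosolic creatine kinase, was at 1401 ± 97.0 and 1327 ± 80.3 TPM, and Ckmt1, a mitochondrial creatine kinase, at 7.83 ± 1.67 and 7.53 ± 0.63 TPM. In the injected rats Ckmt1 differed by -0.40 on the log2 scale (SE 0.20), at 9.51 ± 2.33 TPM in Lean+VEH rats and 7.04 ± 0.80 TPM in Obese+TT rats, with overlap. The creatine list thus rests on 3 genes, with a median of -0.031 in untreated rats and 0.089 in injected rats.

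The list on lactate and pyruvate metabolism had 8 of 17 genes named, and none passed in untreated rats. Ldha, the lactate dehydrogenase subunit favoured in glycolytic tissue, was at 239.3 ± 22.1 TPM in Lean rats and 302.4 ± 57.2 TPM in Obese rats (0.32, SE 0.11, limma adjusted p = 0.381), and was the only 1 of the 8 with an unadjusted p under 0.05 and higher in Obese, beside 5.91% of all genes. Ldhb, the other main subunit, was at 627.3 ± 45.2 and 615.5 ± 42.1 TPM. The mitochondrial pyruvate carrier subunits Mpc1 and Mpc2 were at 251.9 ± 20.1 and 156.8 ± 9.18 TPM in Lean, and 241.2 ± 23.6 and 156.3 ± 12.6 TPM in Obese. The median over the list was -0.0017 in untreated and 0.034 in injected rats.

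Thyroid hormone transport had 5 of 10 genes named, with 4 lower and 1 higher in Obese and none past the threshold. An unadjusted p under 0.05 was found for 2 of the 5, both lower, beside 3.75% of all genes. Genes could be named only through the study's tables, which hold genes it called in these rats, so this is not a like comparison. Slco1c1, a thyroxine carrier, was at 177.8 ± 23.8 TPM in Lean rats and 144.9 ± 16.9 TPM in Obese rats (-0.29, SE 0.093, limma adjusted p = 0.321). Dio2, which converts thyroxine to its active form, was scarce at 1.36 ± 1.01 and 0.55 ± 0.49 TPM (-1.19, SE 0.50, limma adjusted p = 0.47). In the injected rats 4 of the 5 could be tested and all 4 were lower in Obese+TT, by at most 0.11 on the log2 scale.

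Only 2 of 12 androgen-response genes had a symbol, Acsl3, an acyl-CoA synthetase, and Pmepa1, a membrane protein, so the list says little of androgen action in these rats. Acsl3 was at 84.9 ± 14.1 TPM in Lean+VEH rats and 67.3 ± 7.19 TPM in Obese+TT rats (-0.33, SE from limma 0.12), with overlap, and at 55.5 ± 7.33 TPM in Lean rats and 43.8 ± 7.17 TPM in Obese rats (-0.35, SE 0.11, limma adjusted p = 0.346). Pmepa1 was at 53.9 ± 6.97 TPM in Lean+VEH rats and 57.3 ± 6.32 TPM in Obese+TT rats. Glucose and ketone supply had 4 of 10 genes named, 1 higher and 3 lower in Obese and 2 higher and 2 lower in Obese+TT, with none past the threshold. Neither of the 2 sodium-coupled monocarboxylate transporters listed had a symbol here.

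The genes whose levels went most closely with each carrier were found from the deviations of log2(TPM + 0.1) from the group means over the 20 rats, among genes that averaged 1 TPM or more. These correlations are a description, and the order given is that in TPM as deposited. Genes were picked by r over all 20 rats, so r over parts of these rats is no independent check. The points share the library, its depth and the share taken by Ttr. For Slc16a12 the middle 95% of 12093 genes had r between -0.26 and 0.65. Highest was Nr1d2 (a transcriptional repressor of the circadian clock), with r = 0.91 and rho = 0.93, followed by C1qtnf3 (a secreted protein of the C1q and TNF-related family), with r = 0.91. The next 3 genes had no symbol, at r = 0.89 to 0.90. Lowest were Lrrc38 (an auxiliary subunit of calcium-activated potassium channels), with r = -0.73, and Arntl (the clock activator BMAL1), with r = -0.69. After median-ratio scaling these were the 25th and 23rd lowest, with r = -0.68 and -0.69.

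Nr1d2 was picked over these same rats, so a high r in parts of them follows largely from the choice. Its r to Slc16a12 was 0.95 over the 12 untreated rats and 0.76 over the 8 injected rats. It was 0.94 without rat 14, 0.87 without rats 12 and 7, and 0.89 after median-ratio scaling. Nr1d2 was at 23.7 TPM in Obese rat 7 and 25.4 TPM in Obese rat 10, and at 35.5 TPM in Obese rat 11 and 34.7 TPM in Obese rat 12. The first pair had the 2 lowest and the other pair 2 of the 3 highest Slc16a12 levels of their group. Nr1d2 had means of 30.1 ± 2.52 TPM in Lean, 30.01 ± 4.92 TPM in Obese, 44.7 ± 5.36 TPM in Lean+VEH rats and 56.2 ± 2.23 TPM in Obese+TT rats, which is nearly the order of Slc16a12. The group means were taken out before the correlation, so this order played no part in it.

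Arntl ran the opposite way to Slc16a12 over the untreated rats, with r = -0.89, but only weakly over the injected rats, with r = -0.36. Its level was 2.35 TPM in Obese rat 7 and 0.99 TPM in Obese rats 8 and 12. Its means were 1.74 ± 0.54 TPM in Lean, 1.52 ± 0.56 TPM in Obese, 3.51 ± 1.63 TPM in Lean+VEH rats and 1.08 ± 0.23 TPM in Obese+TT rats. C1qtnf3 had r = 0.90 in untreated and 0.95 in injected rats, with means of 80.6, 93.3, 93.7 and 132.8 TPM in the order Lean, Obese, Lean+VEH and Obese+TT.

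**Figure D4:**
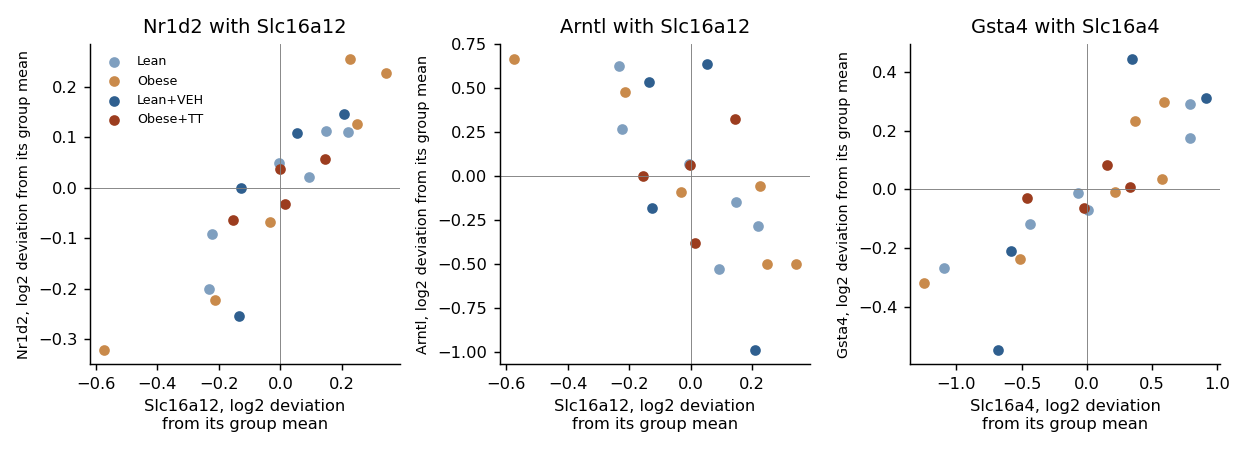
Deviation of log2(TPM + 0.1) from the group mean for Nr1d2 and Arntl against Slc16a12 and for Gsta4 against Slc16a4, with 1 point per rat (n = 20) and the colour giving the group. Nr1d2 and Gsta4 rise with their carrier (r = 0.91 and 0.84), while the Arntl points run downward (r = -0.69) with more scatter in the injected rats.

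Other genes of the lists lay across the range. Slc16a13 had r = 0.73 to Slc16a12, with 0.968% of genes higher, and 0.60 after median-ratio scaling. The 10 epithelial markers ran from -0.51 (Ttr) to 0.80 (Sostdc1; 0.71 after scaling), and 7 of them lay inside the middle 95% of genes, among them Igfbp2 at 0.25, Kl at 0.29, Otx2 at 0.36 and Enpp2 at 0.42. Emb had r = 0.56 and 0.34 after scaling, and Bsg 0.32 and -0.13. After scaling, Ttr had r = -0.31.

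For Slc16a4 the middle 95% of 12094 genes had r between -0.54 and 0.59. Among the 5 highest, 3 had a symbol: Gsta4 (a glutathione transferase that detoxifies lipid aldehydes), with r = 0.84 and rho = 0.92, Trappc3 (a subunit of a vesicle tethering complex), with r = 0.81, and Sat2 (an acetyltransferase), with r = 0.80. The highest of all, at r = 0.86, and both of the lowest, at -0.80 and -0.79, had no symbol. After median-ratio scaling Gsta4 was the 3rd highest, Trappc3 the 7th and Sat2 the 24th, and the lowest genes were the 18th and 48th lowest. Gsta4 had r = 0.92 in untreated and 0.82 in injected rats, 0.82 without rat 14 and 0.83 without rats 6 and 12. It too was picked over these same rats.

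Gsta4 was far more abundant than Slc16a4. It was at 371.1 TPM in Lean rat 6 and 371.5 TPM in Obese rat 12, the lowest of each untreated group, as Slc16a4 was. In Lean+VEH, Gsta4 was at 264.8, 479.4, 526.4 and 334.1 TPM in rats 13 to 16, with rats 14 and 15 high for both genes. Its means were 450.3 ± 64.3 TPM in Lean, 469.5 ± 79.3 TPM in Obese, 401.2 ± 122.3 TPM in Lean+VEH rats and 309.8 ± 13.8 TPM in Obese+TT rats. No gene was on both lists of most similar genes.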

How the data were processed

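The authors sequenced choroid plexus RNA of 20 rats (NEBNext Ultra kit, Illumina NovaSeq, paired-end reads of 150 bp) and mapped it to Rnor_6.0, Ensembl release 104, with STAR 2.7.9a. The submitters' processing notes also list RSEM 1.3.3 and DESeq2 (3.16), without roles. The authors deposited TPM and FPKM per rat. TPM summed to 1000000, and FPKM was TPM times 1 factor per rat. Counts were not used here, so the reads behind a value are unknown and the study's DESeq2 test on counts was not run. TPM was tested as log2(TPM + 0.1) with limma 3.58.1 (R 4.3.3, trend, not robust) on the groups of 1 comparison, for genes averaging 0.1 TPM or more, with Benjamini-Hochberg adjustment over all genes tested and a threshold of 0.05. The test was checked on simulated data. Single genes were compared with exact permutation tests (scipy 1.17.1), and correlations over 12 or 10 rats used 100000 resamples. No duplicate libraries were found in 42 pairs within groups.

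The members and lists were chosen with earlier results of these data known. Named genes are the pair, the listed genes, and the 5 most and 2 least similar genes per member. Symbols came from the study's supplementary tables, which named 2616 of 32883 identifiers here. Those tables include the genes that the study called as differentially expressed in these same rats. Named genes may therefore hold more called genes than all genes do. Counts within a list, set beside shares of all genes, are a description only. No genome of this build was used, so positions are not given. A gene of the SLC16 list is not reported here. Alternatives were FPKM, another pseudocount (1), other filters, other limma options, median-ratio scaling, 1 fit of 20 rats, and leaving out each rat. The likeness after scaling and without rat 14, and the cohort values without rat 14, were added after seeing the data.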

Additional observations from a re-analysis of the deposited data

Results flagged for a closer look

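Neither Slc16a12 nor Slc16a4 had a rat that stood apart from the rest of its group. Dixon's test was run on 44 genes in 176 groups, and found 7 such values in 5 rats, where chance gives about 1 in 20, or 8.8. These genes were the pair, the gene lists, and the genes most and least like the pair. Cell type markers outside the lists were not checked. Among them Otx2, an epithelial marker, ran from 7.85 to 85.9 TPM in Obese rats, with a median of 69.7 TPM. Bsg was at 2337 TPM in Lean+VEH rat 15, below the 2739 to 2751 TPM of the others. Ldhb was at 636.9 TPM in Lean+VEH rat 13, below 768.5 to 791.1 TPM. Dld reached 74.3 TPM in Obese+TT rat 19, above 69.6 to 70.3 TPM. Slc7a8 reached 41.5 TPM in Lean rat 2, above 30.01 to 32.8 TPM. Dio2 was at 0.35 TPM in Obese+TT rat 19 and listed at 0 in the other 3 rats. Pmepa1 reached 124.6 TPM in Obese rat 7, above 53.0 to 78.7 TPM. Oxct1 was at 53.9 TPM in the same rat, below 63.5 to 68.9 TPM.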

How the results depend on the processing

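With limma on log2(TPM + 0.1), the untreated comparison called 0 genes (1466 at an unadjusted p under 0.05), 1 with FPKM, 1 with median-ratio scaling, 3 with all 20 rats in 1 fit, and 0 to 1 when each rat was left out. The injected comparison called 0 genes (1134 unadjusted), 6 with all 20 rats in 1 fit, and 0 to 25 when each rat was left out, with 25 without Lean+VEH rat 13. The cause was not tested. The untreated difference of Slc16a12 was -0.051 to 0.13 when each rat was left out, with the sign reversed in 5 of 12, and 0.0093 to 0.022 under 8 other alternatives, with adjusted p of 0.804 to 0.99 over all of these. That of Slc16a4 was -0.065 to 0.40, reversed in 1 of 12, and 0.070 to 0.17 under 7 others, with adjusted p of 0.798 to 0.989. The injected difference of Slc16a12 was 0.25 to 0.37 when each rat was left out and 0.28 to 0.30 otherwise. That of Slc16a4 was -1.51 to -0.98, and -0.60 with a pseudocount of 1. With a minimum mean of 1 TPM, Slc16a4 was not among the genes tested. The correlation of the pair was 0.30 with a pseudocount of 1 and 0.59 without rats 12 and 7. No paired analysis was possible because each library came from a different rat and the labels pair no rats across groups. A test on counts was not run here. The reads behind each value are unknown, so depth limits for Slc16a4, at about 1 TPM or less in most rats, cannot be given.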
